A study of Mus musculus with 172 samples.

Results

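The glucocorticoid receptor gene *Nr3c1*, the mineralocorticoid receptor gene *Nr3c2* and 6 genes known to be induced by glucocorticoids (*Fkbp5*, *Tsc22d3*, *Sgk1*, *Zbtb16*, *Nfkbia* and *Errfi1*) were followed in the cerebral cortex and liver of BXD mice after sleep deprivation (SD). These 8 genes were chosen by name, with earlier results of these data known. All 8 were listed in both tissues, among 14896 genes listed in cortex, 14107 in liver and 12695 in both. In both tissues *Fkbp5*, *Tsc22d3*, *Zbtb16*, *Nfkbia* and *Errfi1* were higher after SD and *Nr3c2* was lower. *Sgk1* rose and *Nr3c1* fell in cortex, while in liver neither passed the test.

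In mice the adrenal steroid corticosterone binds both receptors, the mineralocorticoid receptor with the higher affinity. The glucocorticoid receptor (GR) waits in the cytoplasm in a complex with Hsp90 and its co-chaperones, enters the nucleus once it binds the hormone, and sits on DNA at palindromic response elements near the genes it induces. In liver the GR is known for its control of gluconeogenesis, and in brain for feedback on the stress axis and for the response of neurons and glia to stress.

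The libraries came from male mice aged 11 to 14 weeks of 33 BXD/RwwJ lines (recombinant inbred lines from C57BL/6J, B6, and DBA/2J, D2), of the parental strains B6 and D2 and of their reciprocal F1 crosses, BD-F1 and DB-F1. SD mice were kept awake for 6 h from light onset and killed at ZT6 (6 h after light onset), and control (Ctr) mice were left undisturbed and killed at the same time. According to the paper, SD was done by gentle handling in the home cage, and Ctr mice stayed in a different room. Sleep loss, handling and room therefore cannot be told apart here. Each library held RNA pooled from mice of 1 line, so that each BXD line and F1 cross had 1 pool per tissue and condition and each parental strain had 2, which made 39 pools in each of the 4 groups. Ctr and SD pools of a line came from different mice. The spread between pools therefore holds the differences between lines, between mice and between collection cohorts as well as technical error. Only B6 and D2 show how far separate pools of 1 genotype differ. According to the paper, their first pools date from the start of data collection and their second from its end. Time is therefore part of the difference between them. BXD79, BXD85 and BXD101 had fewer mice than the other lines, and a library of BXD85 or BXD101 may hold a single mouse. By their genotype labels BXD96, BXD97 and BXD103 are sublines of BXD48, BXD65 and BXD73, which are also in the set, so not all lines are independent. The 4 BXD/TyJ lines, in which BXD29 and BXD29t carry related labels, are described apart.

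The sequences that bear on these genes are shown first. The genome (mm9) was searched for the palindromic glucocorticoid response element, AGAACA and TGTTCT with any 3 bases between them, which reads alike on both strands, over each gene and 5 kb on each side. *Fkbp5* (chr17:28536040-28654469, minus strand) held 2 exact matches, both in introns, and *Sgk1* (chr10:21601990-21719709, plus strand) held 1. They are shown with 7 bases on each side, 5′ to 3′ along the gene, with the element in capitals.
*Fkbp5*, chr17:28557259-28557287, minus strand: cacattcAGAACAGGGTGTTCTgtgctct
*Fkbp5*, chr17:28579357-28579385, minus strand: ttgtttgAGAACAGCTTGTTCTaggcttt
*Sgk1*, chr10:21713500-21713528, plus strand: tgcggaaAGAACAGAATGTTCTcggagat

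Exact matches were uncommon, being found in 252 of the 15041 listed genes with a position (1.68%), and in 3.88% of the genes of a length close to that of *Fkbp5* or *Sgk1*. The other 6 genes held none, which says only that these letters are not in the windows searched. The *Sgk1* match lies in an intron of the whole gene and also in the promoter window of 1 of its inner start sites, 189 bases before that start in the RefSeq promoters of GRCm38.p6, where 3 of 32851 windows (0.00913%) held such a match. In the same set 6 of the 8 genes had a promoter window. That of *Nfkbia*, whose product holds NF-kappaB in the cytoplasm and which is itself a target of NF-kappaB, was the only one among them with an exact kappaB motif (GGGAA joined to TTTCC, or GGAAA joined to TTCCC on the other strand), as were 29 windows of the set (0.0883%). It is shown in capitals with 10 bases on each side.
*Nfkbia*, GRCm38.p6 chr12:55492657-55492686, minus strand: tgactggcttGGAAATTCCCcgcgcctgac

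The cortex libraries held 18995492 to 28998853 counted reads and the liver libraries 4681101 to 8269401, the lowest being the liver SD library of BXD70. Some libraries stood apart from the others of their group over all genes. The median gene deviated from the group median by 0.435 on the log2 scale in the liver SD library of BXD70 (group median of this deviation 0.112), by 0.206 in the cortex Ctr library of BXD90 and by 0.128 in that of BXD56 (0.0678). It deviated by 0.234 in the liver SD library and by 0.190 in the liver Ctr library of BXD50, and by 0.193 in the liver Ctr library of DB-F1. All tests of a change were repeated without BXD56, BXD70 and BXD90, and the values are given where they changed a call or moved a result, whereas BXD50 and DB-F1 were left out only from the correlations. In liver the summed level of 5 hepatocyte markers lay between 1935 and 3259 CPM (read counts scaled to the size of the library) in Ctr pools. That of 5 neuronal markers in cortex lay between 7668 and 8720.1 CPM in Ctr and between 7457 and 8383 CPM in SD pools. Of these neuronal markers 3 fell after SD, against 35.4% of all genes called lower in cortex. The summed level of 4 choroid plexus markers in cortex varied widely, from 8.04 to 235 CPM in Ctr and from 6.65 to 406 CPM in SD pools. Markers of B cells in liver fell in 5 of 5 cases (median log2 change -1.44, summed level 6.86 to 26.7 CPM in Ctr and 2.45 to 13.5 CPM in SD pools, with 46 single values at 0 reads). Of all genes 22.6% were called lower in liver. With bulk tissue, fewer cells of a type and less RNA per cell cannot be told apart.

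*Nr3c1* changed little. In cortex the level of *Nr3c1* was 6.86 to 7.45 log2 CPM in Ctr pools (median 7.30) and at most 7.41 in SD pools (median 7.19). The SD range lay within that of the Ctr pools, yet the SD pool was the lower one in 33 of 39 lines or pools, and the mean log2 change was -0.11 (SE 0.022), or 0.927-fold (limma, adjusted p = 1.0e-05). The exceptions included BXD90, with a change of 0.38, and BXD56, with 0.13, which are the lines whose Ctr libraries stood apart and which held the lowest *Nr3c1* Ctr levels, 6.86 and 7.04. Without these 2 lines and BXD70 the mean change was -0.13.

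In liver *Nr3c1* lay between 7.69 and 8.16 log2 CPM in Ctr pools (median 7.95) and between 7.11 and 8.13 in SD pools (median 7.91). Only 23 of 39 pools were lower after SD, and the log2 change of -0.062 (SE 0.031) did not pass the test (limma, adjusted p = 0.101). Over the alternatives the call was not stable, since it passed with the 4 BXD/TyJ lines added (adjusted p = 0.0388) and after quantile normalization (0.0315). The largest fall, -0.81, was that of BXD70, and without this line the mean was -0.042 (adjusted p = 0.158).

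*Nr3c2*, the receptor that binds corticosterone with the higher affinity, fell in both tissues. In cortex it lay between 4.42 and 5.48 log2 CPM in Ctr pools (median 5.03) and at most 5.05 in SD pools (median 4.72), with nearly the same lowest value. The level after SD was 0.819 times that of Ctr, a log2 change of -0.29 (SE 0.035, adjusted p = 2.3e-11). *Nr3c2* fell in 38 pools and rose in BXD90 alone (0.19). At least 38 pools fell together for 8.94% of all genes in cortex.

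In liver *Nr3c2* lay between 4.86 and 6.03 log2 CPM in Ctr pools (median 5.80) and between 3.71 and 5.76 in SD pools (median 5.38). It fell by 0.40 on the log2 scale (SE 0.065, adjusted p = 1.9e-07), in 37 of 39 pools. The changes ranged from -2.20 in BXD70 to 0.67 in BXD85, and the next lowest change after that of BXD70 was -0.89, in BXD95. Without BXD56, BXD70 and BXD90 the mean change was -0.35 (adjusted p = 3.1e-08).

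**Figure D1:**
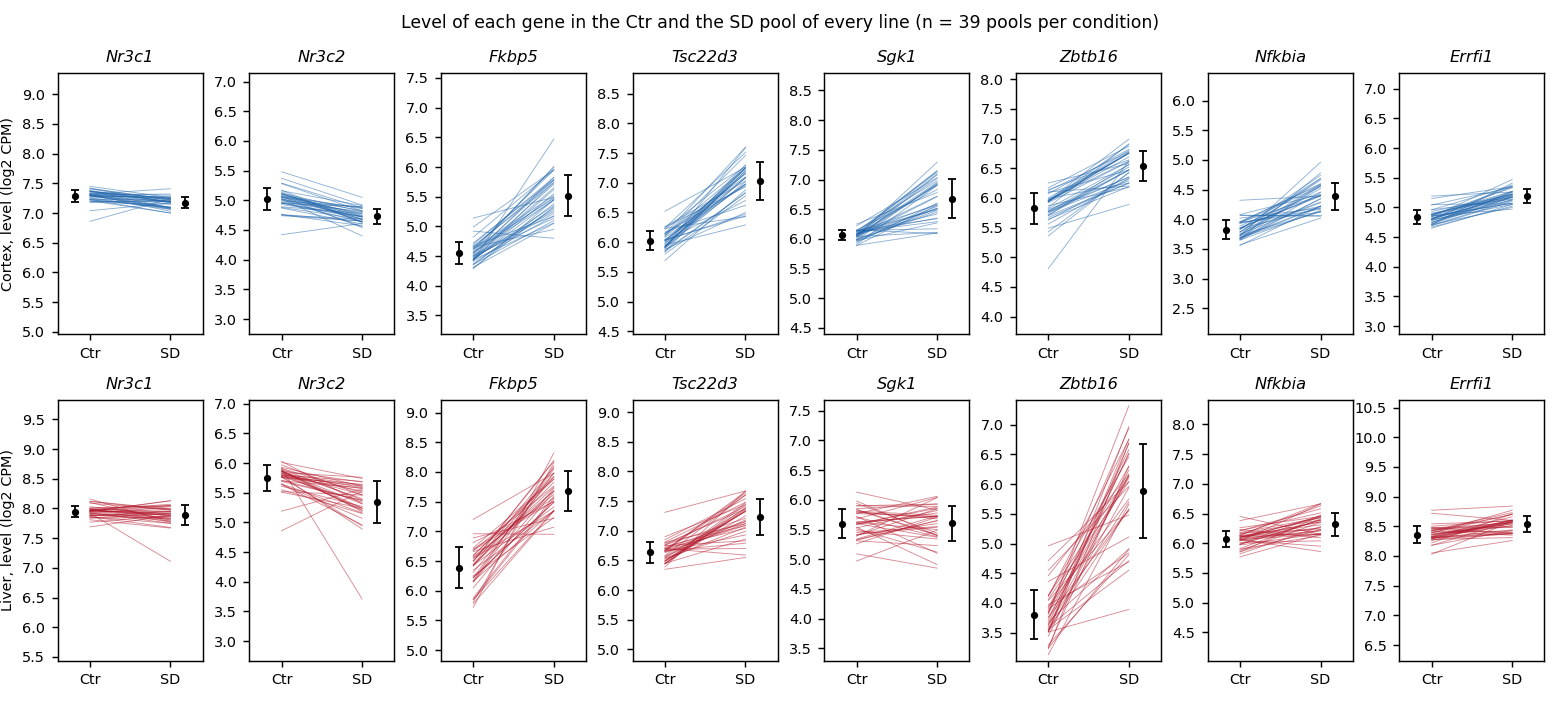
Level of each of the 8 genes in log2 CPM (vertical axis) in the Ctr and SD pool of every line (thin lines, n = 39 pools per condition), in cortex (upper row, blue) and liver (lower row, red), with the mean ± standard deviation over pools in black; all panels span the same number of log2 units. *Fkbp5* and *Zbtb16* climb steeply in liver, the *Nr3c1* lines are nearly flat, and the steep falls of *Nr3c1* and *Nr3c2* in liver are those of BXD70.

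*Fkbp5* encodes the co-chaperone FKBP51, which joins the Hsp90 complex of the GR and lowers its affinity for the hormone, so that its induction closes a feedback loop. In cortex its level was 4.29 to 5.14 log2 CPM in Ctr pools (median 4.51) and 4.80 to 6.47 in SD pools (median 5.49). Of the 39 SD pools 33 lay above every Ctr pool. In cortex this count was 35 for *Sgk1*, 34 for *Tsc22d3*, 33 for *Zbtb16*, 23 for *Nfkbia* and 20 for *Errfi1*. The share over all genes was not computed. The mean log2 change of *Fkbp5* was 0.97 (SE 0.062), a 1.95-fold level (adjusted p = 1.4e-24), and it ranked 121st among the rises of 14896 genes.

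A rise in at least 38 of 39 pools, as here, was found for 10.4% of all genes in cortex. BXD89 alone was lower after SD (-0.11), BXD67 had the next smallest change (0.30), and BXD95 the largest (2.05), followed by BXD79 (1.45). The standard deviation of the change over pools was 0.37, against a counting error of a single change of 0.079, so that sampling of reads made up little of the spread. The 2 pools of a parental strain had changes of 0.90 and 1.17 in B6 and of 1.31 and 1.13 in D2.

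In liver *Fkbp5* rose more. Its level was 5.72 to 7.20 log2 CPM in Ctr pools (median 6.43) and 6.95 to 8.32 in SD pools (median 7.68). Of the SD pools 37 lay above every Ctr pool, against 31 for *Zbtb16*, 20 for *Tsc22d3*, 10 for *Nfkbia*, 1 for *Errfi1* and 0 for *Sgk1*. *Fkbp5* rose in 38 of 39 pools. At least 38 pools rose together for 2.35% of all genes in liver. The mean log2 change was 1.30 (SE 0.075), or 2.46-fold (adjusted p = 3.6e-26), which ranked 36th among the rises of 14107 genes. Changes ran from -0.013 in BXD101 and 0.32 in BXD51 to 2.35 in DB-F1 and 2.61 in BXD95. In the parental pools the change was 1.27 and 1.06 in B6 and 1.33 and 1.93 in D2.

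*Tsc22d3* encodes GILZ, a leucine zipper protein that carries part of the anti-inflammatory action of glucocorticoids. In cortex it lay between 5.69 and 6.52 log2 CPM in Ctr pools (median 6.02) and between 6.29 and 7.60 in SD pools (median 7.08). It rose in 39 of 39 pools, by 1.00 on the log2 scale (SE 0.056, adjusted p = 5.8e-28), the largest mean change of the 8 genes in this tissue. A rise in every pool was seen for 6.48% of all genes in cortex. The smallest rises were those of BXD89 (0.20) and BXD45 (0.34) and the largest those of BXD79 (1.47) and BXD95 (1.68).

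In liver *Tsc22d3* lay between 6.35 and 7.31 log2 CPM in Ctr pools (median 6.65) and between 6.55 and 7.67 in SD pools (median 7.32). It rose in 38 of 39 pools, with a mean log2 change of 0.60 (SE 0.054, adjusted p = 6.0e-16). The exception was BXD96 (-0.10), 1 of the pools of B6 did not move (0.0035, against 0.44 in the other), and the largest change was again that of BXD95 (1.29).

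*Zbtb16* encodes PLZF, a zinc finger repressor of transcription. In liver it was scarce in Ctr pools, at 3.13 to 4.96 log2 CPM (median 3.75) or 52 to 194 reads, and reached 3.89 to 7.32 log2 CPM (median 6.04) or 69 to 1284 reads after SD. It rose in 39 of 39 pools, which 1.02% of all genes did in liver, and its mean log2 change of 2.08 (SE 0.14), 4.23-fold, was the third largest rise of the 14107 genes (adjusted p = 1.3e-22). The changes differed widely, from 0.37 in BXD70 and 0.51 in BXD50 to 3.45 in BXD90 and 3.51 in BXD79. Both low values came from libraries that stood apart over all genes, the liver SD library of BXD70 and both liver libraries of BXD50. The *Zbtb16* Ctr level of BXD50 was also the highest of all pools (4.96). The standard deviation of the change was 0.87 against a counting error of 0.17, but the 2 pools of D2 also differed, with 1.71 and 3.05.

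In cortex the rise of *Zbtb16* was smaller and more even. Its level was 4.81 to 6.25 log2 CPM in Ctr pools (median 5.87) and 5.89 to 6.99 in SD pools (median 6.56). It rose in 39 of 39 pools, by 0.71 on the log2 scale (SE 0.057, adjusted p = 2.7e-19). The largest rise, 1.81 in BXD90, came with the lowest Ctr level of all pools (4.81), and the smallest were those of BXD101 (0.093) and BXD89 (0.26). Without BXD56, BXD70 and BXD90 the mean was 0.66.

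*Sgk1* encodes a kinase of the serum- and glucocorticoid-regulated family that acts on ion channels and transporters. In cortex its Ctr level was uniform, at 5.89 to 6.25 log2 CPM (median 6.06), while SD pools spread from 6.09 to 7.29 (median 6.60). It rose in 38 of 39 pools, by 0.62 on the log2 scale (SE 0.054, adjusted p = 1.0e-17), from -0.064 in BXD89 and 0.024 in BXD48 to 1.08 in DB-F1 and 1.25 in BXD55. The standard deviation over pools went from 0.084 in Ctr to 0.33 in SD.

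In liver *Sgk1* had no common direction. Its level was 4.97 to 6.13 log2 CPM in Ctr pools (median 5.60) and 4.85 to 6.06 in SD pools (median 5.68). The change was positive in 20 and negative in 19 pools, with a mean of 0.0045 (95% interval -0.12 to 0.12, adjusted p = 0.963). Single lines changed by -0.63 (BXD48) to 0.65 (BXD95), and the standard deviation of the change, 0.34, was above the counting error of 0.11. The 2 pools of B6 gave 0.26 and -0.63, and those of D2 gave -0.013 and 0.087.

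*Nfkbia*, which encodes the inhibitor IkappaBalpha, rose more in cortex than in liver. In cortex it lay between 3.56 and 4.32 log2 CPM in Ctr pools (median 3.79) and between 4.02 and 4.96 in SD pools (median 4.39), a mean log2 change of 0.57 (SE 0.044, adjusted p = 4.2e-20), up in 38 of 39 pools. The change was lowest in BXD89 (-0.027) and BXD85 (0.0021), and BXD50 (1.11) and BXD55 (1.24) rose most. In liver the levels were 5.77 to 6.45 log2 CPM in Ctr pools (median 6.08) and 5.86 to 6.67 in SD pools (median 6.35), with a change of 0.25 (SE 0.038, adjusted p = 6.1e-08), up in 35 of 39 pools and lowest in BXD89 (-0.30) and BXD101 (-0.20).

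*Errfi1* encodes MIG6, an inhibitor of the EGF receptor. In cortex it lay between 4.65 and 5.19 log2 CPM in Ctr pools (median 4.81) and between 4.97 and 5.47 in SD pools (median 5.20). It rose in 39 of 39 pools, by 0.36 on the log2 scale (SE 0.027, adjusted p = 4.8e-21), from 0.014 in BXD89 to 0.69 in BXD55. In liver it lay between 8.03 and 8.77 log2 CPM in Ctr pools (median 8.35) and between 8.26 and 8.84 in SD pools (median 8.57), with a change of 0.17 (SE 0.031, adjusted p = 1.6e-06), up in 35 of 39 pools.

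**Figure D2:**
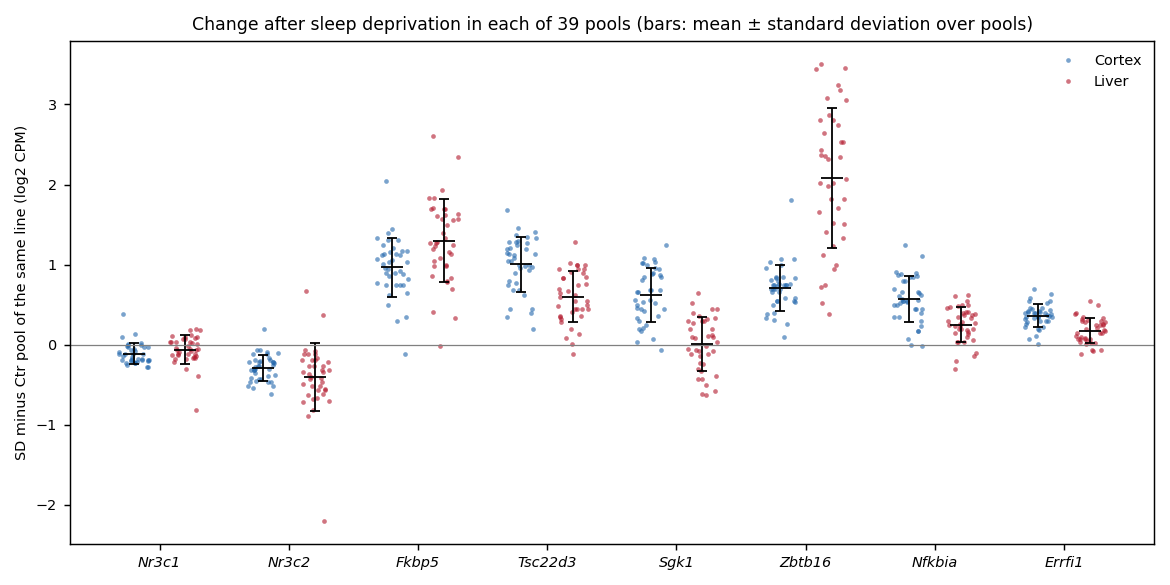
SD minus Ctr pool of the same line in log2 CPM (vertical axis) for each of the 8 genes, in cortex (blue) and liver (red); each point is 1 of 39 pools and the black bars give the mean ± standard deviation over pools. *Zbtb16* in liver has the highest mean (2.08) and the widest spread, and *Sgk1* in liver is centred on 0.

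In cortex 6 of the 8 genes were called higher and 2 lower, and in liver 5 higher and 1 lower. Over all genes tested, 33.0% were called higher and 35.4% lower in cortex, and 21.5% and 22.6% in liver, so that a call alone sets a gene little apart. By size, the rises of *Fkbp5* and *Tsc22d3* in cortex were in the top 0.812% and 0.752% of genes. Those of *Zbtb16* and *Fkbp5* in liver were in the top 0.0213% and 0.255%. The genes were chosen with earlier results of these data known, so these ranks and the medians that follow are descriptions only. The median change of the 8 genes was 0.59 in cortex and 0.21 in liver, against -0.0097 and -0.0015 over all genes. The 4 BXD/TyJ lines, which are not among the 39 pools, showed rises of *Fkbp5*, *Tsc22d3*, *Zbtb16*, *Nfkbia* and *Errfi1* in 4 of 4 lines in both tissues, with *Fkbp5* changes of 0.75 to 1.83 in cortex and 1.34 to 2.41 in liver.

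Levels of different genes were compared per kilobase of exon (CPM per kb, exon lengths from the GENCODE annotation of mm9). Reads were counted on RefSeq genes, whose lengths may differ from these, so the order of genes with close levels is uncertain. In Ctr cortex the order by median was *Nr3c1* (21.3 CPM per kb), *Tsc22d3* (14.9), *Sgk1* (13.6), *Zbtb16* (11.5), *Nfkbia* (8.78), *Errfi1* (7.85), *Nr3c2* (5.06) and *Fkbp5* (3.60). Only *Errfi1* and *Nr3c2* among neighbours in this order did not overlap in range, although the higher gene of every other neighbouring pair was the higher one in at least 34 of 39 pools. After SD the first place in cortex went to *Tsc22d3* (31.3 CPM per kb), and *Sgk1* (19.7), *Nr3c1* (19.6) and *Zbtb16* (18.5) could not be ordered, since *Sgk1* was above *Nr3c1* in 22 and *Nr3c1* above *Zbtb16* in 24 of 39 pools. *Fkbp5* passed *Nr3c2* in 39 of 39 SD pools (7.09 against 4.07 CPM per kb).

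In Ctr liver *Errfi1* stood first (91.2 CPM per kb) without overlap with the next gene, followed by *Nfkbia* (42.8), *Nr3c1* (33.4), *Tsc22d3* (23.2), *Fkbp5* (13.7), *Sgk1* (9.89), *Nr3c2* (8.58) and *Zbtb16* (2.63). The ranges of all neighbours after *Errfi1* overlapped. After SD *Tsc22d3* (36.8 CPM per kb), *Fkbp5* (32.4) and *Nr3c1* (32.3) lay together, with *Tsc22d3* above *Fkbp5* in 25 and *Fkbp5* above *Nr3c1* in 22 of 39 pools. *Zbtb16* moved from the last place to above *Sgk1* in 26 of 39 pools (12.9 against 10.4 CPM per kb). The tables of the tissues were normalized separately, so levels were not compared between tissues.

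The size of the change differed between tissues for 6 of the 8 genes. It was larger in liver for *Zbtb16*, by 1.37 on the log2 scale (SE 0.12, adjusted p = 1.3e-13, in 37 of 39 pools), and for *Fkbp5*, by 0.33 (SE 0.058, adjusted p = 4.4e-06, in 33 of 39 pools). It was smaller in liver for *Sgk1* (difference -0.62, SE 0.051, adjusted p = 6.5e-14, in 38 of 39 pools), *Tsc22d3* (-0.40, SE 0.045, adjusted p = 3.2e-10, in 37 pools), *Nfkbia* (-0.32, SE 0.042, adjusted p = 1.3e-08, in 34 pools) and *Errfi1* (-0.19, SE 0.033, adjusted p = 4.2e-06, in 32 pools). Over the 12695 genes listed in both tissues 57.6% were called as different.

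For the receptors the tissues could not be told apart by this test. The difference was -0.11 for *Nr3c2* (SE 0.068, adjusted p = 0.15), and it shrank to -0.065 without BXD70 (adjusted p = 0.28) and to -0.044 without BXD56, BXD70 and BXD90 (adjusted p = 0.456). It was 0.047 for *Nr3c1* (SE 0.031, adjusted p = 0.188). The latter call rested on BXD70, since without this line the difference in *Nr3c1* was 0.068 (adjusted p = 0.0122) and without BXD56, BXD70 and BXD90 it was 0.084 (adjusted p = 0.00152), a smaller fall in liver than in cortex.

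Whether lines with a large change in 1 tissue also had it in the other was asked over 37 strains, with the 2 pools of each parental strain averaged. The sublines BXD96, BXD97 and BXD103 were counted as strains of their own. Cortex and liver were collected from the same mice, so that a relation between the tissues that belongs to the line and one that belongs to the mice in its pools cannot be told apart. Over all 12695 genes the Pearson correlation of the change in cortex with that in liver had a median of 0.011, and 5% of genes lay below -0.26 and 5% above 0.28. For *Fkbp5* r was 0.70 (rho = 0.68, permutation p = 1e-05 for both, the smallest the permutations can give, adjusted p = 0.00971 over all genes), and 0.0158% of genes had an r as high. It was 1 of 7 genes called, 0.0551% of those tested.

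The r of *Fkbp5* was lower without its extreme strains. Without BXD89 and BXD95, the strains farthest from the median in cortex, r was 0.57 (permutation p = 3.1e-04) and the adjusted p 0.333. With each strain left out in turn r stayed between 0.62 and 0.76, and the adjusted p was under 0.05 in 36 of 37 cases, the exception being BXD95 (r = 0.62, adjusted p = 0.0759). Without BXD56, BXD70 and BXD90 r was 0.70, with an adjusted p of 0.051 over 34 strains.

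*Tsc22d3*, *Sgk1*, *Nfkbia* and *Zbtb16* had correlations in the same direction that did not pass the correction over all genes. For *Tsc22d3* r was 0.62 (rho = 0.51, permutation p = 1.1e-04 and 0.00173, adjusted p = 0.0647, r = 0.55 without BXD89 and BXD45), and 4 of the 37 strains, when left out singly, brought its adjusted p under 0.05. For *Sgk1*, which had no mean change in liver, r was 0.53 (rho = 0.55, permutation p = 6.7e-04 and 5.3e-04, adjusted p = 0.39, r = 0.58 without BXD89 and BXD55).

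For *Nfkbia* r was 0.51 (rho = 0.48, permutation p = 0.00144 and 0.00316, adjusted p = 0.433, r = 0.47 without BXD55 and BXD50). For *Zbtb16* r was 0.49 (rho = 0.48, permutation p = 0.00156 and 0.00282, adjusted p = 0.531), and it was 0.37 without BXD90 and BXD101 and 0.59 without BXD70. Each of these 4 genes was among the 0.291% of genes with the highest r.

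The correlations of the receptors and *Errfi1* were lower and did not pass. For *Nr3c1* r was 0.24 (rho = 0.33, permutation p = 0.136 and 0.0444, adjusted p = 0.975), with 0.40 without BXD70 (adjusted p = 0.844) and 0.14 without BXD90 (adjusted p = 0.982). For *Nr3c2* r was 0.035 (rho = 0.15, permutation p = 0.839 and 0.382, adjusted p = 1), and 0.22 without BXD56, BXD70 and BXD90 (adjusted p = 0.955). For *Errfi1* r was -0.001 (rho = -0.11, permutation p = 0.995 and 0.499, adjusted p = 1). With 37 strains only strong correlations can pass a correction over all genes, so these values do not show that the tissues are unrelated.

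**Figure D3:**
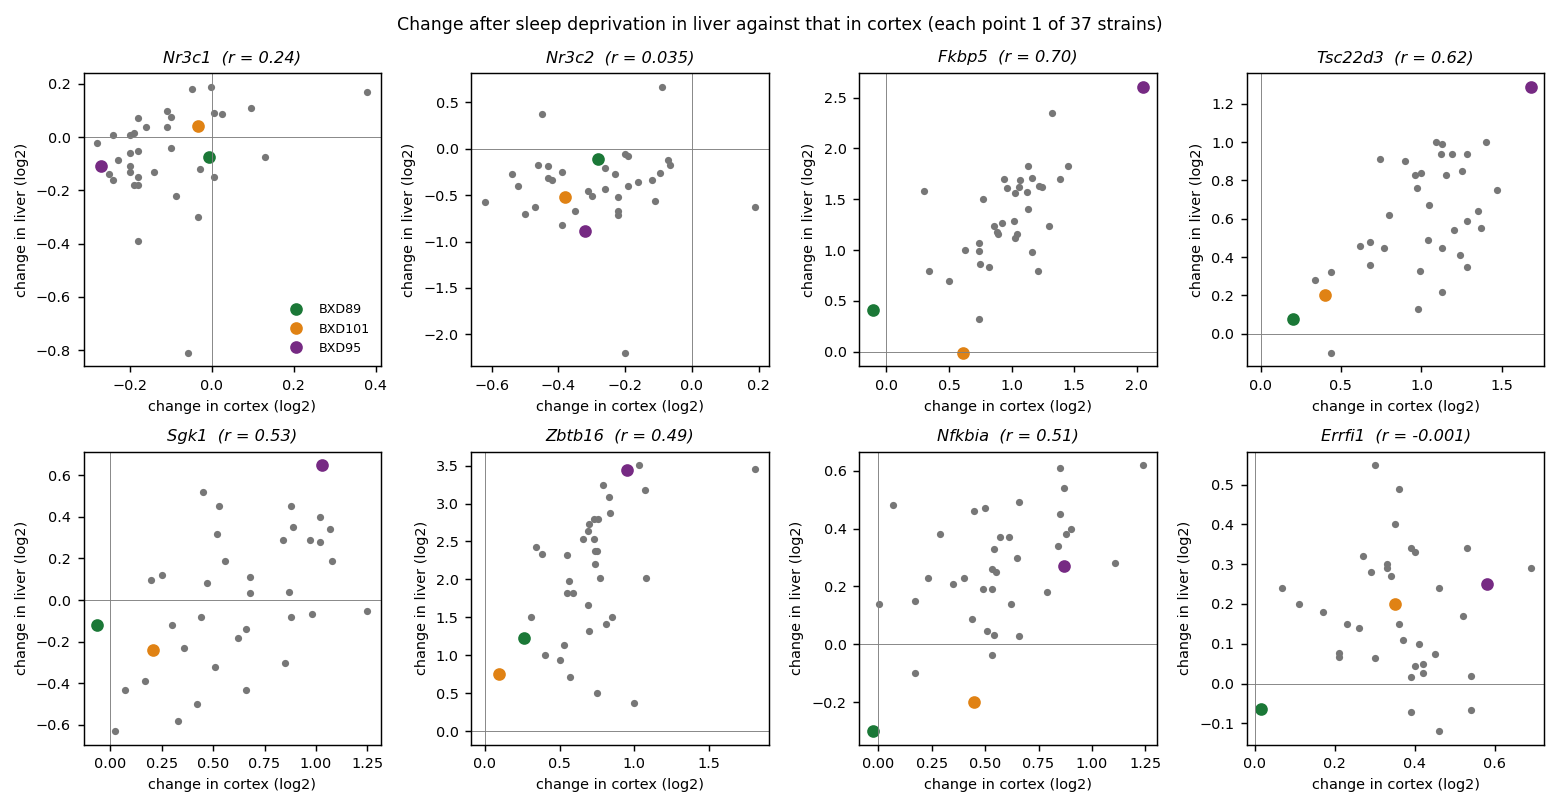
Change after SD in liver (vertical axis, log2 CPM) against that in cortex (horizontal axis, log2 CPM) for each of the 8 genes, with 1 point for each of 37 strains and Pearson's r above each panel; BXD89 (green), BXD101 (orange) and BXD95 (purple) are marked. The *Fkbp5* points rise together (r = 0.70), with BXD95 at the upper right, and those of *Errfi1* show no order (r = -0.001).

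Some strains stood at an end for more than 1 gene. BXD95 had the largest change of *Fkbp5* (2.05 in cortex and 2.61 in liver) and of *Tsc22d3* (1.68 and 1.29) among the 37 strains in both tissues, and the largest change of *Sgk1* in liver (0.65). BXD89 had the smallest change of *Nfkbia* in both tissues (-0.027 and -0.30), the smallest of *Fkbp5*, *Tsc22d3*, *Sgk1* and *Errfi1* in cortex, and the second smallest of *Tsc22d3* in liver (0.076), but in liver it ranked 13th from the lowest for *Sgk1* and 8th for *Zbtb16*. BXD55 had the largest change of *Nfkbia* in both tissues (1.24 and 0.62) and of *Sgk1* (1.25) and *Errfi1* (0.69) in cortex. BXD101, which had fewer mice, had the smallest change of *Fkbp5* in liver (-0.013) and of *Zbtb16* in cortex (0.093).

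Of the 9 strains with the smallest changes in each tissue, 5 were shared for *Fkbp5*, *Tsc22d3*, *Sgk1* and *Zbtb16* each. Those of *Tsc22d3* and *Sgk1* included both BXD48 and its subline BXD96. At least 5 shared strains at the low end were found for 2.73% of all genes, and at the high end for 2.56%. At the high end 6 of 9 strains were shared for *Zbtb16*, 5 for *Fkbp5*, *Sgk1* and *Nfkbia* and 3 for *Tsc22d3*. For *Fkbp5* the shared low strains were BXD51, BXD56, BXD71, BXD89 and BXD101, and the shared high strains BXD66, BXD79, BXD95, D2 and DB-F1. The low change of BXD56 in cortex (0.34) came with the highest *Fkbp5* Ctr level of all pools (5.14), in a library that stood apart. DB-F1, shared at the high end for *Fkbp5* and *Zbtb16*, had a liver Ctr library that stood apart. So did BXD90, shared there for *Zbtb16*, in its cortex Ctr library. *Nr3c1* shared 1 low and 5 high strains, *Nr3c2* 2 and 4, and *Errfi1* 1 and 2.

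**Figure D4:**
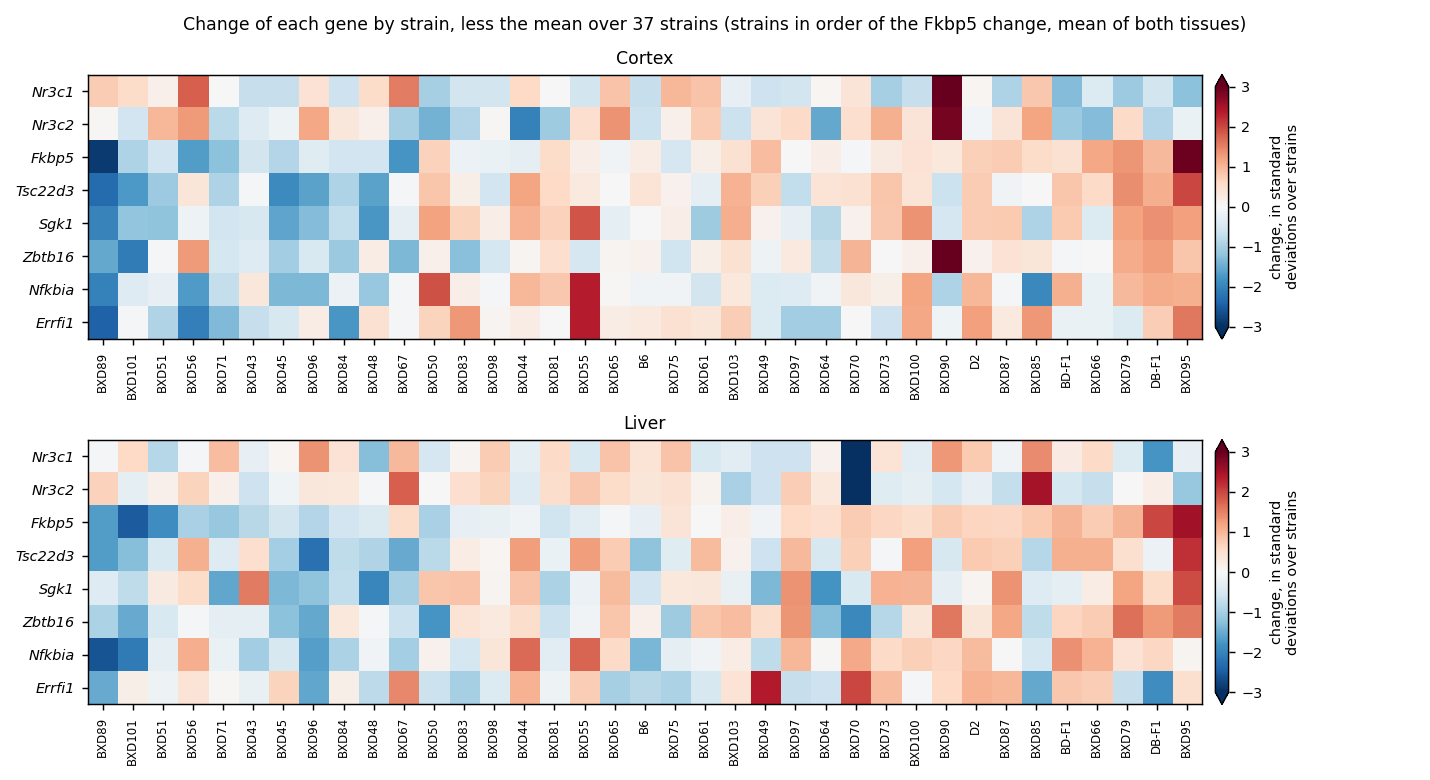
Change after SD of each of the 8 genes (rows) in each of 37 strains (columns, in order of the *Fkbp5* change averaged over the tissues), in cortex (upper panel) and liver (lower panel), as the difference from the mean over strains in standard deviations (colour, blue below and red above, with arrows where values go past the scale). The run from blue to red of *Fkbp5* follows from the order of the columns. Blue gathers on the left and red on the right in both panels for *Tsc22d3*, *Sgk1* and *Zbtb16* too, though for *Sgk1* in liver r with the *Fkbp5* change was only 0.35. For *Nfkbia* r with the *Fkbp5* change was 0.55 in cortex and 0.52 in liver. BXD90 in cortex and BXD70 in liver stand out for *Nr3c1*, *Nr3c2* and *Zbtb16*.

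Within a tissue, the change of each gene was compared with that of *Fkbp5* over the same 37 strains. Both changes come from the same libraries, so an error in a library is shared. In cortex *Tsc22d3* (r = 0.71, rho = 0.73, permutation p = 1e-05 for both, the smallest they can give, adjusted p = 3.6e-04), *Sgk1* (r = 0.60, rho = 0.63, permutation p = 5.0e-05 and 1.1e-04, adjusted p = 0.0101), *Errfi1* (r = 0.58, rho = 0.44, permutation p = 2.8e-04 and 0.00627, adjusted p = 0.0193) and *Nfkbia* (r = 0.55, rho = 0.51, permutation p = 5.1e-04 and 0.0015, adjusted p = 0.0312) passed the correction, as did 1.20% of all genes with a positive r and 0.604% with a negative one. Without BXD89 the call was lost for *Sgk1* (r = 0.53, adjusted p = 0.0614), *Errfi1* (r = 0.47, adjusted p = 0.157) and *Nfkbia* (r = 0.46, adjusted p = 0.169), and without BXD89 and BXD95 r was 0.58, 0.51, 0.40 and 0.44 in the order given. With each of the 37 strains left out in turn, the call held in 37 cases for *Tsc22d3*, 36 for *Sgk1*, 34 for *Errfi1* and 32 for *Nfkbia*.

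*Zbtb16* and *Nr3c1* did not pass in cortex (r = 0.47, adjusted p = 0.109, and r = -0.45, adjusted p = 0.143). With strains left out singly, a call was gained in 2 cases for *Zbtb16* and in 1 case for *Nr3c1*, and both values moved most without BXD90. Without this line r was 0.57 for *Zbtb16* (adjusted p = 0.0197) and -0.61 for *Nr3c1* (adjusted p = 0.00808), that is, strains with a larger rise of *Fkbp5* had a larger fall of *Nr3c1*. Without BXD56, BXD70 and BXD90 r was 0.75 for *Zbtb16* (adjusted p = 2.0e-04) and -0.57 for *Nr3c1* (adjusted p = 0.0278). For *Nr3c2* r was -0.047 (adjusted p = 0.954).

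In liver no member passed, against 0.248% of all genes with a positive r that did and 0.0922% with a negative r. The highest values were those of *Zbtb16* (r = 0.53, rho = 0.52, permutation p = 7.0e-04 and 0.00103, adjusted p = 0.0921), *Nfkbia* (r = 0.52, rho = 0.50, permutation p = 0.00104 and 0.00199, adjusted p = 0.115) and *Tsc22d3* (r = 0.50, rho = 0.43, permutation p = 0.00189 and 0.00915, adjusted p = 0.147). *Zbtb16* passed without BXD70 (r = 0.61, adjusted p = 0.0184), and the 3 values fell to 0.42, 0.48 and 0.35 without BXD95 and BXD101. *Sgk1* (r = 0.35), *Errfi1* (r = 0.13), *Nr3c1* (r = -0.15) and *Nr3c2* (r = -0.19) had adjusted p-values from 0.407 to 0.909.

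The genes whose change was most like that of *Fkbp5* over the 37 strains in cortex were *Wipf3* (r = 0.89), *Plin4* (0.84), *Sult1a1* (0.84), *Mt1* (0.84) and *Cmtm3* (0.82), among 13735 genes with a mean of at least 0 log2 CPM. In liver they were *4933426M11Rik* (r = 0.70), *Fbxo31* (0.68), *Slc19a1* (0.68), *Foxo1* (0.65) and *St3gal5* (0.65), among 12863 genes. Of the cortex genes *Mt1* had an r of 0.59 and *Plin4* of 0.43 with the *Fkbp5* change in liver, and the others between -0.038 and 0.17. In cortex *Tsc22d3* ranked 27th among all 14895 other genes by this measure, and *Sgk1* 83rd.

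The Ctr level of *Nr3c1* was compared with the change of the other genes over the same strains, where the Ctr library enters both measures. In cortex negative correlations with the change of *Zbtb16* (r = -0.60, rho = -0.29, permutation p = 0.00142 and 0.085, adjusted p = 0.00149) and *Nr3c2* (r = -0.48, rho = -0.28, permutation p = 0.00385 and 0.0927, adjusted p = 0.0169) passed, as for 14.9% of all genes. They rested on BXD90 and BXD56, whose Ctr libraries stood apart, for without them r was -0.13 and -0.09. For the other members r lay between 0.053 and 0.32 in cortex, and in liver between -0.20 and 0.17 with no gene called at an adjusted p under 0.05.

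The genes around the receptor were read from lists of its chaperones, of steroid metabolism and transport, of its coregulators and of other known targets. Their counts stand against the 33.0% of all genes called higher and 35.4% called lower in cortex, and 21.5% and 22.6% in liver. Of 16 genes of the chaperone cycle, through which the GR gains and keeps its hormone-binding form, 14 rose and 1 fell in cortex and 12 rose and 1 fell in liver, with medians of 0.26 and 0.24 against -0.0097 and -0.0015 over all genes. The largest rises in cortex were those of the heat shock genes *Hspa1b* (log2 change 1.35, SE 0.070), *Hspa1a* (0.72, SE 0.052) and *Hspa8* (0.62, SE 0.15), and in liver those of *Hspa1b* (1.74, SE 0.11), *Hspa1a* (1.69, SE 0.19) and *Dnajb1* (0.74, SE 0.040). *Hspa1a* and *Hspa1b* are near-identical copies whose reads may be split between them. In liver Ctr pools *Hspa1a* was scarce (mean -0.0055 log2 CPM). The phosphatase gene *Ppp5c* fell in cortex (-0.079, SE 0.014) and the ubiquitin ligase gene *Stub1* in liver (-0.11, SE 0.029).

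Of 12 genes of glucocorticoid metabolism and transport 6 were listed in cortex, where 4 fell and none rose, and 11 in liver, where 2 rose and 3 fell, shares in liver that lie near those of all genes. The medians were -0.19 and -0.028. In cortex the steroid exporter gene *Abcb1b* fell by 0.54 on the log2 scale (SE 0.054), *Srd5a3* by 0.21 (SE 0.029) and *H6pd*, which supplies NADPH to the enzyme that regenerates corticosterone, by 0.17 (SE 0.028). In liver *H6pd* rose by 0.19 (SE 0.027) and *Srd5a1* by 0.12 (SE 0.032), while *Abcb1a* (-0.62, SE 0.12), *Srd5a3* (-0.24, SE 0.042) and *Akr1d1*, a steroid 5-beta-reductase gene (-0.15, SE 0.031), fell. *Hsd11b1*, the gene of the regenerating enzyme itself, had log2 changes of 0.028 in cortex (SE 0.056, adjusted p = 0.675) and 0.031 in liver (SE 0.038, adjusted p = 0.549).

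Of 15 coregulator genes 8 rose and 2 fell in cortex, and 5 rose and 2 fell in liver, with medians of 0.12 and 0.052. Among the rises in cortex were those of *Hexim1* (0.50, SE 0.020) and *Tob2* (0.20, SE 0.031), and *Hdac6*, which deacetylates Hsp90, fell by 0.10 (SE 0.018) and *Carm1* by 0.09 (SE 0.014). In liver *Tob2* (0.29, SE 0.053), the Mediator gene *Med1* (0.21, SE 0.048) and *Hexim1* (0.13, SE 0.024) led the rises, followed by *Ncor1* (0.13, SE 0.049). There *Hdac6* fell in 39 of 39 pools by 0.51 (SE 0.029) and *Ncoa1* fell by 0.12 (SE 0.052). The 2 falls in liver became 1 without BXD56, BXD70 and BXD90, and 3 with line as a block.

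Of 40 other known target genes 35 were listed in cortex, where 30 rose and 1 fell, and all 40 in liver, where 24 rose and 5 fell, with medians of 0.47 and 0.22. In cortex the largest rises were those of the lipid droplet gene *Plin4* (2.67, SE 0.19), the cell cycle inhibitor gene *Cdkn1a* (1.64, SE 0.088) and the phosphatase gene *Dusp4* (1.50, SE 0.067), and *Cdkn1c* fell in 39 of 39 pools (-0.69, SE 0.061). In liver they were those of *Fam107a* (2.06, SE 0.26), the metallothionein gene *Mt2* (1.40, SE 0.23) and *Ctgf* (1.35, SE 0.13), and *Pdk4*, whose product spares glucose in fasting, fell by 0.95 (SE 0.12), *Arrdc3* by 0.17 (SE 0.042) and *Gpd1* by 0.12 (SE 0.029). *Fam107a* was scarce in liver Ctr pools (mean -0.66 log2 CPM, where a gene without a read has -2.77), so the size of its rise rests on few reads. Many of the genes in this list also answer to other signals, such as neuronal activity, and the list was drawn up with earlier results of these data known.

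**Figure D5:**
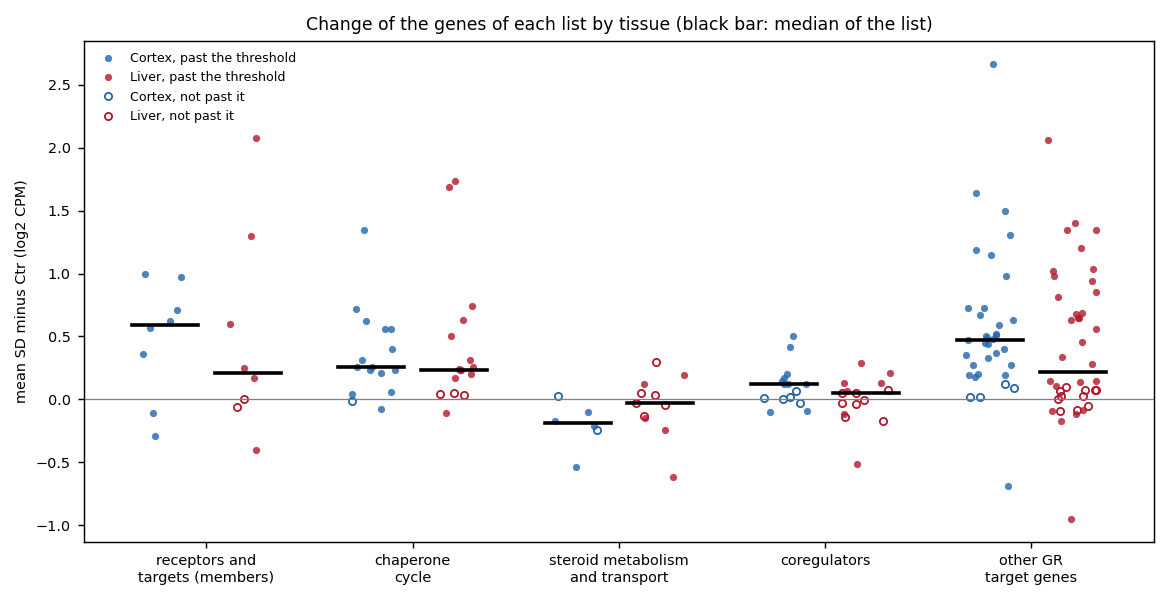
Mean SD minus Ctr difference in log2 CPM (vertical axis) of each gene of the 8 members and of the lists around the receptor (horizontal axis), in cortex (blue) and liver (red); filled points had an adjusted p under 0.05, open points did not, and black bars give each list's median. The chaperone and target lists lie mostly above 0 in both tissues, with medians of 0.26 and 0.24 for the chaperones.

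Depth and cell type markers were set beside the *Fkbp5* change over the 37 strains, as descriptions. The log2 ratio of SD to Ctr reads had an r with it of -0.04 in cortex and -0.081 in liver. The summed levels of the marker lists of cortex had an r between -0.23 and 0.093 with it. In liver the change of the summed B cell markers had an r of -0.56 with the *Fkbp5* change and that of the endothelial markers, of which 3 of 5 rose and 1 fell, an r of 0.51 (summed level 261 to 644 CPM in Ctr and 298 to 721 CPM in SD pools), and their part in the result was not tested. Other liver lists had an r between -0.24 and 0.18. The counts of endothelial markers stand against 21.5% of all genes called higher and 22.6% called lower in liver.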

How the data were processed

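RNA was extracted from the cortex and liver of 39 main and 4 BXD/TyJ pools per tissue and condition, and stranded mRNA libraries were sequenced single-end. According to the methods and the submitters' processing notes, the authors aligned reads to mm9 with STAR, counted them per RefSeq gene by strand with htseq-count, left out genes with a low mean count, and deposited log2 CPM values after TMM normalization with edgeR (versions not given in the sources used here). A CPM unit here is a read count per effective library size. The deposited values allowed whole reads to be recovered for 100.0% of them within a tolerance of 0.02 reads, which gave the depths.

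SD was compared with Ctr by linear models in limma 3.58.1 under R 4.3.3 (empirical Bayes moderation with a mean-variance trend, two-sided) on the deposited log2 CPM values over the 39 main pools, and the tissues on the liver minus cortex difference of the changes. The Benjamini-Hochberg adjustment ran over all genes of a table, and genes with an adjusted p under 0.05 were called. Correlations over 37 strains have permutation p-values (100000 resamples, two-sided) for the 8 members, and adjusted p-values from Pearson's r over all genes, in 5 families of relations. The fits and correlations were tested on simulated data. The main fit of SD against Ctr has no block, while the liver minus cortex test uses differences within a line and is paired. Pools of the same line deviated together between Ctr and SD (lowest correlation 0.30 in cortex and 0.17 in liver, over 0.1 in 39 of 39 pairs in both), so lines pair the samples, and a fit with line as a block was run as well. P-values of the main SD fits measure the spread between pools, and those of the liver minus cortex test the spread of the paired differences. Those of the correlations rest on the 37 strains.

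The 8 members, the gene lists and the rules were chosen with earlier results of these data known. The text names all 8 members, from each list the 3 largest called rises and falls, and the 5 genes most like *Fkbp5* in each tissue. The values of 1 listed gene are not reported here. *Hsd11b1* was named after its values were seen. Alternatives changed the scaling, the prior count, the filter on low values, the variance trend, the test (voom), the block and the pools, and 13 that left out lines or strains were chosen after seeing the data. Sequences came from the mm9 genome and from RefSeq promoters (GRCm38.p6).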

Additional observations from a re-analysis of the deposited data

Results flagged for a closer look

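The change after SD differed between the tissues, by a test of the difference itself, for 6 of the 8 genes, and for 57.6% of all genes listed in both tissues. Liver minus cortex, it was 1.37 for *Zbtb16*, 0.33 for *Fkbp5*, -0.19 for *Errfi1*, -0.32 for *Nfkbia*, -0.40 for *Tsc22d3* and -0.62 for *Sgk1* on the log2 scale. In the 4 BXD/TyJ lines, the Ctr level of *Zbtb16* in the cortex of BXD05 (5.17 log2 CPM) lay far below the other lines (5.93 to 6.04), and the Ctr level of *Tsc22d3* in the liver of BXD32 (6.96) far above them (6.40 to 6.45). Of 32 such groups of 4 libraries 2 held a library this far from the others, and chance alone gives about 1 in 20.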

How the results depend on the processing

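Of 868 alternative values, 824 kept their direction and their side of the threshold, and no value that passed a test changed sign. With line as a replicate block, which is how the pools are paired, 5458 genes rose and 5901 fell in cortex (4913 and 5278 without it) and 3672 rose and 3931 fell in liver (3036 and 3193 without it), and no call of the 8 genes changed (*Nr3c1* in liver, adjusted p = 0.0567). Without the block 2938 genes were higher and 3129 lower in the liver minus cortex comparison, against 3551 and 3761 with it. With the block each count of called genes in the lists around the receptor moved by at most 1.

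The call of *Nr3c1* in liver was gained with 43 pools (-0.071) and after quantile normalization (-0.076), and that of its liver minus cortex change without BXD70 (0.068) and without BXD56, BXD70 and BXD90 (0.084), where falling coregulators in liver also went from 2 to 1. The cause was not tested.

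The correlations moved most with the strains used. Across tissues, leaving out 1 strain in turn gave 0.62 to 0.76 for *Fkbp5* and 0.56 to 0.65 for *Tsc22d3*, and *Fkbp5* lost its call without BXD56, BXD70 and BXD90 (0.70) and without the 2 farthest strains (0.57). With the *Fkbp5* change in cortex, the ranges were 0.47 to 0.61 for *Errfi1*, 0.46 to 0.61 for *Nfkbia*, 0.53 to 0.63 for *Sgk1*, 0.41 to 0.57 for *Zbtb16* and -0.61 to -0.40 for *Nr3c1*, and in liver 0.48 to 0.61 for *Zbtb16*. Over the 33 BXD/RwwJ lines *Errfi1* (0.56) and *Nfkbia* (0.52) lost their call. Without the 2 farthest strains *Errfi1* (0.40), *Nfkbia* (0.44) and *Sgk1* (0.51) did so, and without BXD56, BXD70 and BXD90 *Errfi1* and *Nfkbia* (both 0.53) did so, while *Nr3c1* (-0.57) and *Zbtb16* (0.75 in cortex, 0.61 in liver) gained one. With the Ctr level of *Nr3c1* in cortex, leaving out 1 strain gave -0.58 to -0.22 for *Nr3c2* and -0.65 to -0.28 for *Zbtb16*. Without BXD56, BXD70 and BXD90 they were -0.089 and -0.13, and without the 2 farthest strains -0.09 and -0.13. The counting error of a single change reached 0.17 for *Zbtb16* in the shallower liver libraries, so that small differences between single lines were not detectable there.

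Values near 0 that passed no test changed sign. The change of *Sgk1* in liver was -0.00047 without BXD56. Across tissues, r of *Errfi1* was 0.013 over the 33 BXD/RwwJ lines, 0.0024 with a prior count of 5 reads, 0.032 without BXD56, BXD70 and BXD90, 0.05 without BXD79, BXD85 and BXD101 and -0.12 to 0.058 with 1 strain left out, and r of *Nr3c2* was -0.061 without BXD79, BXD85 and BXD101, -0.0042 without the sublines BXD96, BXD97 and BXD103 and -0.055 to 0.13 with 1 strain left out. With the *Fkbp5* change in cortex, r of *Nr3c2* was 0.0017 over the 33 lines and -0.10 to 0.014 with 1 strain left out. With the Ctr level of *Nr3c1*, r was -0.031 to 0.09 for *Tsc22d3* in cortex with 1 strain left out and -0.027 for *Zbtb16* in liver without the 2 farthest strains.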

Other observations

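The 4 BXD/TyJ lines, which are not among the 39 main pools, changed as follows. *Tsc22d3* rose by 0.98 to 1.51 in cortex and by 0.19 to 1.12 in liver on the log2 scale, *Zbtb16* by 0.49 to 1.46 and by 0.96 to 3.25, *Nfkbia* by 0.47 to 0.97 and by 0.11 to 0.65, and *Errfi1* by 0.25 to 0.59 and by 0.18 to 0.33. *Sgk1* rose in 4 of 4 of these lines in cortex (0.44 to 1.14) and in 3 of 4 in liver (-0.23 to 0.77). *Nr3c2* changed by -0.68 to 0.12 in cortex and by -0.74 to -0.063 in liver, and *Nr3c1* by -0.16 to -0.018 and by -0.33 to 0.087.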
